A study of Mus musculus with 18 samples.

Results

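The 10 genes Sdf2l1, Dnajb11, Pdia5, Txndc11, Syvn1, Sec22a, Golgb1, Tfg, Yif1a and Rab1b encode proteins that fold, inspect and carry cargo in the endoplasmic reticulum (ER) and on the way to the Golgi. They were chosen by symbol from the 40620 rows of a gene count table of MC3T3-E1 cells, a mouse preosteoblast line, and all 10 had a row. Of these, 7 lie on mouse chromosome 16, and Syvn1, Yif1a and Rab1b lie on chromosome 19. Pdia5 and Sec22a are direct neighbours, and Cnih2 lies between Yif1a and Rab1b. The cells stably expressed 1 of 3 short hairpin RNAs. The hairpins shRcor2-18 and shRcor2-20 carry the label of a knockdown of Rcor2, a corepressor protein, and the control shScramble carries the label WT. There were 18 libraries, 2 for every construct at each of the times 0h, 24h and 7d. The series asked what silencing of Rcor2 does during osteoblast differentiation, which was induced with ascorbic acid (50 µg/ml), β-glycerophosphate (5 mM) and the steroid dexamethasone (10 nM). The labels do not say whether the 0h cells were still dividing or confluent, and their harvest protocol does not name 7d, which comes from the sample titles. The labels do not state whether both libraries of a group came from separate cultures, so p-values measure only the spread between these libraries, and that spread may be technical.

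Proteins bound for secretion enter the ER, where chaperones and disulfide isomerases fold them and where misfolded chains are sent back for degradation. Cargo that passes leaves in COPII-coated vesicles, which small GTPases, tethers and SNARE proteins guide to the Golgi. Osteoblasts secrete large amounts of collagen and other matrix proteins by this route, and a load of unfolded protein switches on many genes of the folding machinery through the factors ATF6 and XBP1.

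Promoters are shown for the genes in which the DNA elements of these factors were found, and for Sec22a and Rab1b, the genes with the clearest differences below. RefSeq promoters (GRCm38.p6, 250 bases before to 50 after a gene's start) were matched for 9 of the 10 genes. The elements searched on both strands were the ER stress response element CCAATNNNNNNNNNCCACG, its second form (ATTGG, 1 base of any kind, then CCACG) and the XBP1 element TGACGTGG. Among all 32851 promoters of the same length they were held by 0.119%, 0.0365% and 0.676%. Among the 10 promoters of the 9 genes each element had 1 match, each in a different gene, so no matches overlapped. Syvn1 held the first at positions -44 to -26 (chr19:6046326-6046625, plus strand), counting the first base of the gene as 0. Dnajb11 held the second form at positions 7 to 17 (chr16:22857595-22857894, plus strand). Txndc11 held the XBP1 element at positions -102 to -95 (chr16:11134483-11134782, minus strand). Its other promoter (chr16:11087881-11088180, minus strand), not shown, held none of the elements. The windows of Sec22a (chr16:35363869-35364168, minus strand) and Rab1b (chr19:5106947-5107246, minus strand) held none of these letters. Capitals mark the fixed letters of a match, and each sequence runs 5′ to 3′ along the gene.
Syvn1: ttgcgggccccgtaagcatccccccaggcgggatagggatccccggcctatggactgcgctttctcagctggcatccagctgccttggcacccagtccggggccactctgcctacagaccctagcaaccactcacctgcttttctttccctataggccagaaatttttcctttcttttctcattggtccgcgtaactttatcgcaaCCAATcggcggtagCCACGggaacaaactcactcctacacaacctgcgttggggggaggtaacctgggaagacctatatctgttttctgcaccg
Dnajb11: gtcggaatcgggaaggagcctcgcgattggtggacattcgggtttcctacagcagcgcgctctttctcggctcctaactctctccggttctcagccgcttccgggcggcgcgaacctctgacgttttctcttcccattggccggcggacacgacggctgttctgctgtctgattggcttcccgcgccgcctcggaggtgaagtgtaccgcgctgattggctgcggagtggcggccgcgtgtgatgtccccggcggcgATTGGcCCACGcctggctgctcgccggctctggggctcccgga
Txndc11: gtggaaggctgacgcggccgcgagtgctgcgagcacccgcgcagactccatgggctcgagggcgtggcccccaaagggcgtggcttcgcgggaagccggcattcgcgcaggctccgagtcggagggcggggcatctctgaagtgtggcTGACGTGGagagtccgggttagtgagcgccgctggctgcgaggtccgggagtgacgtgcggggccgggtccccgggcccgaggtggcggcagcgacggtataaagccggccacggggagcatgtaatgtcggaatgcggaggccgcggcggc
Sec22a: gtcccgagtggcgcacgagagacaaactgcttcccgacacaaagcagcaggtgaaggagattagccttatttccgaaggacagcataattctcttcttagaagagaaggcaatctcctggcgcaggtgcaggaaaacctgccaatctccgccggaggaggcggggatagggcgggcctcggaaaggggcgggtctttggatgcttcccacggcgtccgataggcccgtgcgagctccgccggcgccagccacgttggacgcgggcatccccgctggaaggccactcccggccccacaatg
Rab1b: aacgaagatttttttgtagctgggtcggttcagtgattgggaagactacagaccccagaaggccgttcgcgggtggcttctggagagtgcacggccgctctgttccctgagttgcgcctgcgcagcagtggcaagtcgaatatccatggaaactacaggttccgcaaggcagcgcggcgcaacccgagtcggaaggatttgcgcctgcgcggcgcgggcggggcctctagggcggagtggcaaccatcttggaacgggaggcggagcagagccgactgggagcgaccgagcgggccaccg

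In large parts of the count table the row names did not match the reads, so the names were first checked by the stretch of chromosome in which they lay. All 10 genes lay in stretches at the starts of chromosomes 16 and 19, which were chosen because broadly expressed families, such as ribosomal proteins, were detected there at 20 CPM (counts scaled to a common library size) or more. Other broadly expressed genes, not used for that choice, were detected for 12 of 12 inside the stretches, against 49 of 176 (27.8%) in the rest of the table. They included single genes named by hand, so the 12 of 12 is not an independent test of the names. Of the 12, 10 lay on chromosome 16 and 2 on chromosome 19. On the rest of chromosome 19, 6 of 8 were detected, so there the stretch was not set apart. Beside Dnajb11, the liver genes Ahsg, Fetub and Hrg had means of 0.0314, 21 and 0 CPM, so that Fetub lay above the 20 CPM taken as detected. Beside Pdia5 the axon guidance gene Sema5b had 0.0168 CPM. Other neighbours were higher, such as Fbxo40 beside Golgb1 (35.8 CPM) and Tmem151a beside Yif1a (78.7 CPM). The neighbours therefore do not check each of the 10 names. Sample 1 of every construct at 0h stood apart: the correlation of its log2 CPM with the remaining 15 libraries was 0.76 to 0.784, and among those 15 it was 0.875 to 0.929. The 10 genes took 0.665 to 0.682% of all counts in those sample 1 libraries and 0.318 to 0.413% in the remaining 15. All rows of the checked stretches together took 18.9 to 19.4% and 11.1 to 12.3%, so the higher share was not particular to the 10. These 3 libraries were left out, so that 15 libraries with 3504808 to 6139315 counts remained and each construct had 1 library at 0h. For 0 of the 18 libraries was its own replicate the most similar library. At 24h and at 7d, sample 1 of shRcor2-18 was closest to sample 1 of shScramble, sample 1 of shRcor2-20 to sample 2 of shScramble, and the second samples of both hairpins to each other. The Rcor2 row held 200.7 to 231.1 CPM with shRcor2-18, 203.2 to 265.2 with shRcor2-20 and 201.5 to 242.2 with shScramble, but it lies outside the checked stretches and does not test the construct labels. Of the 9 osteoblast markers listed for a check of the cell type, 0 lay in those stretches, so the label was not checked in that way. The adipocyte marker Adipoq did lie there and had a mean of 0.199 CPM.

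All 10 genes were well detected. In CPM after TMM scaling, which is the unit of all levels below, the highest library was 1.36 times the lowest for Txndc11 and 2.91 times for Pdia5, and the other genes lay between. The coefficient of variation over the 15 libraries ran from 8.55% for Txndc11 to 29.0% for Pdia5. Levels were not compared between genes, because the counts are not per length. Averaged over the 3 constructs, Sec22a passed as higher at 7d against both earlier times, and Rab1b as lower at 7d against 0h. None of these calls held with the sample number within each construct as a block, and most were lost when single libraries were left out. No other member passed the test in any comparison. These are edgeR quasi-likelihood tests with p adjusted over 12930 rows, and they are listed by gene below. In bulk RNA, fewer cells of a type and less RNA per cell cannot be told apart. The 3 comparisons of times share libraries and are not independent of each other.

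Sec22a, a member of the Sec22 family of proteins for vesicle traffic between ER and Golgi, had the clearest rise. Its level at 0h was 90.6 CPM with shRcor2-18, 94.4 with shRcor2-20 and 78.3 with shScramble. At 24h it ran from 85.8 to 97.6 CPM with a median of 91.3, and at 7d from 106 to 137 CPM with a median of 123. Every 7d library was above every library of the earlier times. The log2 fold change was 0.43 ± 0.085 (SE) at 7d against 24h (1.34-fold; edgeR adjusted p = 0.0449) and 0.49 ± 0.11 at 7d against 0h (1.40-fold; edgeR adjusted p = 0.0347). It follows that 7d was above 24h in 6 of 6 pairs of construct and sample number, by 1.09 to 1.48 times. With each construct taken alone, the log2 fold change at 7d against 24h was 0.47 ± 0.15 in shRcor2-18, 0.53 ± 0.15 in shRcor2-20 and 0.28 ± 0.15 in shScramble, and none passed (edgeR adjusted p of 0.392 to 0.675). Of all rows, 0.0387%, 0.0155% and 0.0773% passed in those fits. Between 24h and 0h the difference was 0.062 ± 0.10 (edgeR adjusted p = 0.935). With the sample number within each construct as a block, Sec22a no longer passed at 7d against 24h (0.42 ± 0.076, edgeR adjusted p = 0.0751) or against 0h (0.44 ± 0.10, edgeR adjusted p = 0.105). In that fit 1.31% and 3.34% of all rows passed. With the libraries that were closest across constructs summed to 3 samples per time, an alternative chosen after the data were examined, the values were 0.44 (edgeR adjusted p = 0.164) at 7d against 24h and 0.50 (edgeR adjusted p = 0.0368) at 7d against 0h, with 0.171% and 4.85% of rows called.

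When single libraries were left out, the size of the Sec22a rise moved little but its adjusted p lay on both sides of the threshold. Against 24h, the log2 fold change was 0.38 to 0.47, and the call held only without 1 of the 0h libraries. Without any 1 of the 12 libraries of 24h and 7d, the edgeR adjusted p was 0.0509 to 0.118. Against 0h, the log2 fold change was 0.41 to 0.54, and the call held without shRcor2-18 24h sample 1 or sample 2, shScramble 7d sample 1 or shRcor2-18 7d sample 2. Without any other 1 of the 15 libraries the edgeR adjusted p was 0.0525 to 0.134. The excluded 0h libraries were higher. Unscaled, Sec22a had 185 CPM in shRcor2-18, 180 in shRcor2-20 and 184 in shScramble in those sample 1 libraries, against 89.4, 93.5 and 81.0 CPM in sample 2. With all 18 libraries the difference at 7d against 0h was -0.17 ± 0.26 (edgeR adjusted p = 0.702).

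Rab1b, a small GTPase that drives transport from the ER to the Golgi, moved in the opposite direction. At 0h it had 1061 CPM with shRcor2-18, 1050 with shRcor2-20 and 1104 with shScramble. At 24h it ran from 921 to 1100 CPM with a median of 1046, and at 7d from 791 to 890 CPM with a median of 837. All 7d libraries were below all others. The log2 fold change was -0.35 ± 0.080 at 7d against 0h (0.787-fold; edgeR adjusted p = 0.0434). It was -0.29 ± 0.066 at 7d against 24h, just short of the threshold (edgeR adjusted p = 0.064). Because the libraries did not overlap, 7d was lower in 6 of 6 pairs of construct and sample number, by a ratio of 0.757 to 0.889. Between 24h and 0h the difference was -0.057 ± 0.080 (edgeR adjusted p = 0.901).

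The Rab1b call against 0h lay nearer the threshold than that of Sec22a. It held without shRcor2-18 24h sample 1 or sample 2, and without any other 1 of the 15 libraries the edgeR adjusted p was 0.0528 to 0.11, with log2 fold changes of -0.37 to -0.32. With the block it was -0.33 ± 0.068 (edgeR adjusted p = 0.0813), and with the closest libraries summed -0.33 (edgeR adjusted p = 0.0532). At 7d against 24h Rab1b passed when the fit held only the 468 genes of the checked stretches (-0.30 ± 0.070, edgeR adjusted p = 0.0179), as did 17.3% of those genes. In the excluded 0h libraries Rab1b had 1911 CPM in shRcor2-18, 1868 in shRcor2-20 and 1787 in shScramble, unscaled, against 1047, 1041 and 1142 in sample 2. With all 18 libraries the difference at 7d against 0h was larger, at -0.83 ± 0.21 (edgeR adjusted p = 0.0412), and 6.98% of all rows passed.

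**Figure D1:**
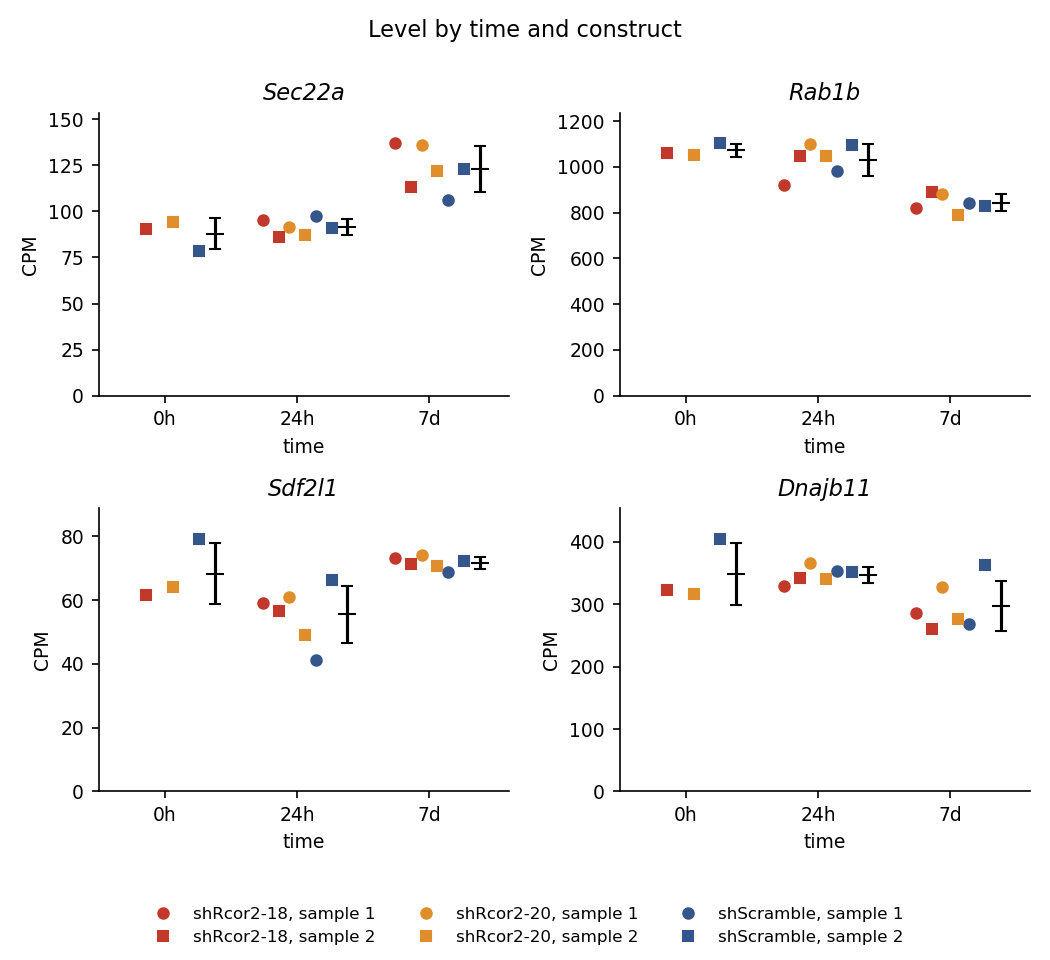
Level of Sec22a, Rab1b, Sdf2l1 and Dnajb11 in CPM (linear axes from 0) in each of the 15 libraries, by time, with colour for the construct, shape for the sample number, and the mean ± SD of a time in black (n = 3 at 0h, n = 6 at 24h and at 7d). The 7d points of Sec22a (106 to 137 CPM) lie above all earlier ones, and those of Rab1b (791 to 890 CPM) lie below.

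The share of members past the threshold is to be read against the table as a whole. At 7d against 0h, 2 of the 10 members passed, while 5.76% of all rows tested did. The member that rose stands beside 3.27% of rows higher, and the one that fell beside 2.49% lower. At 7d against 24h it was 1 of 10, higher, against 2.34% of all rows (1.15% higher, 1.18% lower), and with scaling by library size alone the called rows split into 130 higher and 220 lower, against 149 and 153 after TMM. At 24h against 0h it was 0 of 10, against 1.86%. At an unadjusted p under 0.05 the members numbered 2, 4 and 0 in the same order. DESeq2 called 2, 2 and 0 members, and 11%, 8.51% and 4.5% of all rows. In a fit of the 468 genes of the checked stretches, the members past the threshold were 2, 2 and 0, and 25.2%, 17.3% and 5.56% of those genes passed, so the share of members was near that background. The median size of the log2 fold change over the 10 members was 0.13 at 7d against 0h, 0.18 at 7d against 24h and 0.036 at 24h against 0h. It was 0.44, 0.32 and 0.32 over all rows, and 0.27, 0.18 and 0.15 over the 468 genes. Libraries of 7d and 24h did not overlap for Sdf2l1, Sec22a and Rab1b, as was the case for 5.01% of all rows. Those of 7d and 0h did not overlap for Sec22a and Rab1b (14.9% of all rows), and those of 24h and 0h overlapped for all 10 members (7.77% of all rows did not).

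**Figure D2:**
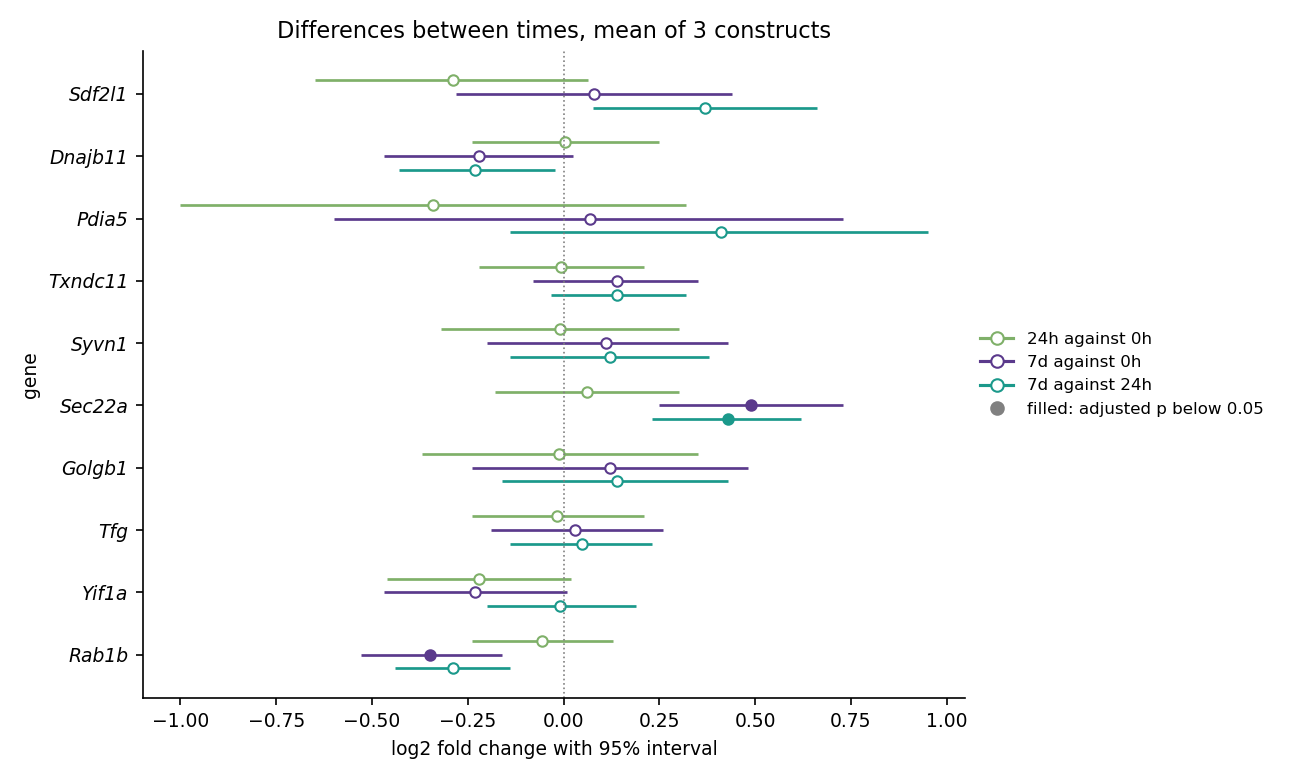
Log2 fold change with its 95% interval for each of the 10 genes in the 3 comparisons of times, averaged over the 3 constructs, from edgeR. Filled points passed an adjusted p of 0.05: Sec22a at 7d against both earlier times and Rab1b at 7d against 0h.

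Sdf2l1 and Dnajb11, which form a chaperone complex in the ER lumen, differed in opposite directions between 7d and 24h, and neither passed. Sdf2l1 had 61.6 CPM with shRcor2-18, 64.2 with shRcor2-20 and 79.3 with shScramble at 0h. It ran from 41.3 to 66.4 CPM at 24h (median 57.8) and from 68.9 to 74.1 CPM at 7d (median 71.9). The 7d libraries lay close together and above all 24h libraries, so that 7d was above 24h in 6 of 6 pairs of construct and sample number. The log2 fold change was 0.37 ± 0.13 at 7d against 24h (edgeR adjusted p = 0.176, unadjusted 0.0193), 0.079 ± 0.16 at 7d against 0h (edgeR adjusted p = 0.87) and -0.29 ± 0.16 at 24h against 0h (edgeR adjusted p = 0.546).

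Dnajb11, a cochaperone that brings unfolded proteins to the chaperone BiP, had 323 CPM with shRcor2-18, 317 with shRcor2-20 and 405 with shScramble at 0h. It ran from 329 to 366 CPM at 24h (median 347) and from 261 to 363 CPM at 7d (median 281). At 7d, 5 of 6 libraries were below all those of 24h, and shScramble sample 2, at 363 CPM, lay among them. The log2 fold change was -0.23 ± 0.089 at 7d against 24h (edgeR adjusted p = 0.23, unadjusted 0.0335) and -0.22 ± 0.11 at 7d against 0h (edgeR adjusted p = 0.297).

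The other enzymes of folding and degradation did not pass at any time. Pdia5, a protein disulfide isomerase, had the widest spread. It had 126 CPM with shRcor2-18, 114 with shRcor2-20 and 180 with shScramble at 0h, 69.1 to 146 CPM at 24h (median 108) and 96.0 to 201 CPM at 7d (median 134). The same libraries were low or high at both later times: sample 1 of shRcor2-18 and of shScramble had 69.1 and 86.1 CPM at 24h, the lowest values of that time, and 112 and 96.0 CPM at 7d, again the lowest. Sample 1 of shRcor2-20 and sample 2 of shScramble were the highest at both times, with 141 and 146 CPM at 24h and 189 and 201 CPM at 7d. In all 6 pairs of construct and sample number 7d was above 24h, by 1.11 to 1.62 times, and the log2 fold change was 0.41 ± 0.24 (edgeR adjusted p = 0.427). With the sample number within construct as a block the SE was smaller, at 0.39 ± 0.083 (edgeR adjusted p = 0.0999), and the gene did not pass either.

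Txndc11, a thioredoxin-domain protein of the ER membrane, was the steadiest of the 10. It had 95.7 to 115 CPM at 0h, 99.2 to 122 CPM at 24h and 109 to 130 CPM at 7d, and the times overlapped. Its difference was 0.14 ± 0.077 at 7d against 24h (edgeR adjusted p = 0.39). Syvn1, the ubiquitin ligase that marks misfolded ER proteins for degradation, had 535 to 562 CPM at 0h, 473 to 594 CPM at 24h and 506 to 725 CPM at 7d. The highest value was shScramble sample 1 at 7d, and the difference at 7d against 24h was 0.12 ± 0.11 (edgeR adjusted p = 0.659). Txndc11 overlaps Snn on the opposite strand, with a mean of 196 CPM in the row of Snn, and Syvn1 overlaps Mrpl49 on the opposite strand, with 74.1 CPM. Pdia5 overlaps Gm25548, at 7.25 CPM, and Golgb1 overlaps 4930565N06Rik, at 3.6 CPM. The counting of strand is not given in the sources used here, so reads of such pairs cannot be told apart.

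The remaining transport genes did not pass in any comparison of times. Golgb1, the Golgi tether giantin, had 390 to 544 CPM at 0h, 369 to 601 CPM at 24h and 422 to 575 CPM at 7d, and all 3 ranges overlapped. Tfg, which organises the sites where COPII vesicles leave the ER, had 286 to 318 CPM at 0h, 260 to 357 CPM at 24h and 272 to 350 CPM at 7d. Yif1a, a membrane protein of the early secretory pathway, had 670 to 764 CPM at 0h, 545 to 675 CPM at 24h and 543 to 693 CPM at 7d. Its difference was -0.23 ± 0.10 at 7d against 0h (edgeR adjusted p = 0.265) and -0.22 ± 0.10 at 24h against 0h (edgeR adjusted p = 0.484), the lowest adjusted p of the 10 members in that comparison. Yif1a overlaps Cnih2 on the opposite strand, whose row had a mean of 6.99 CPM. For these 3 genes the log2 fold changes of 7d against 24h were 0.14 ± 0.13, 0.047 ± 0.080 and -0.0083 ± 0.086 (edgeR adjusted p of 0.663, 0.86 and 1.0).

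**Figure D3:**
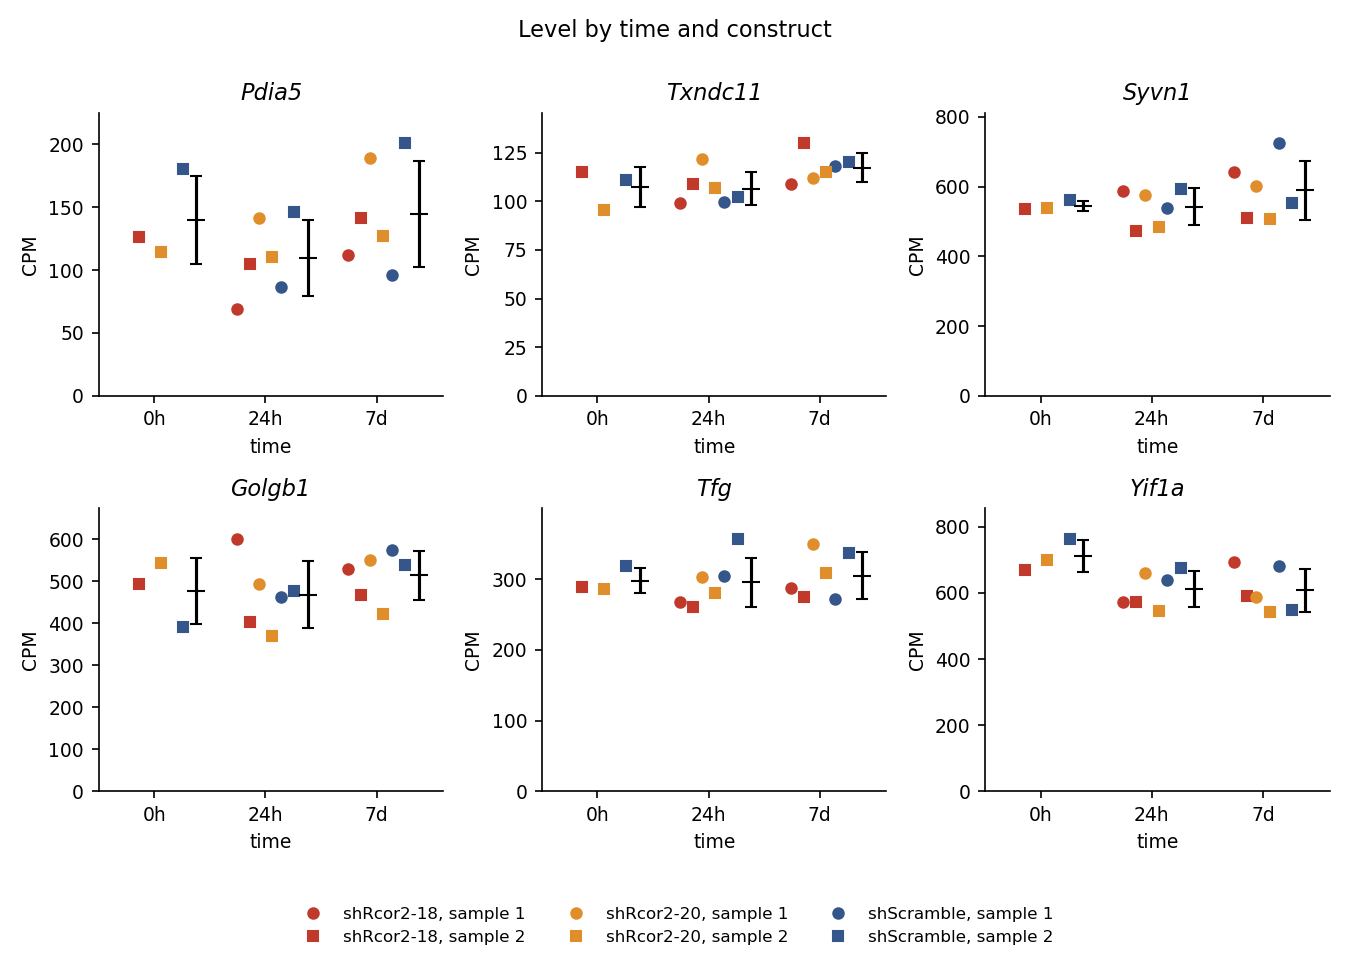
Level of the other 6 genes in CPM (linear axes from 0) in each of the 15 libraries, by time, with colour for the construct, shape for the sample number, and the mean ± SD of a time in black (n = 3 at 0h, n = 6 at 24h and at 7d). The times overlap for every gene shown, and Pdia5 spreads most, from 69.1 to 201 CPM.

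**Figure D4:**
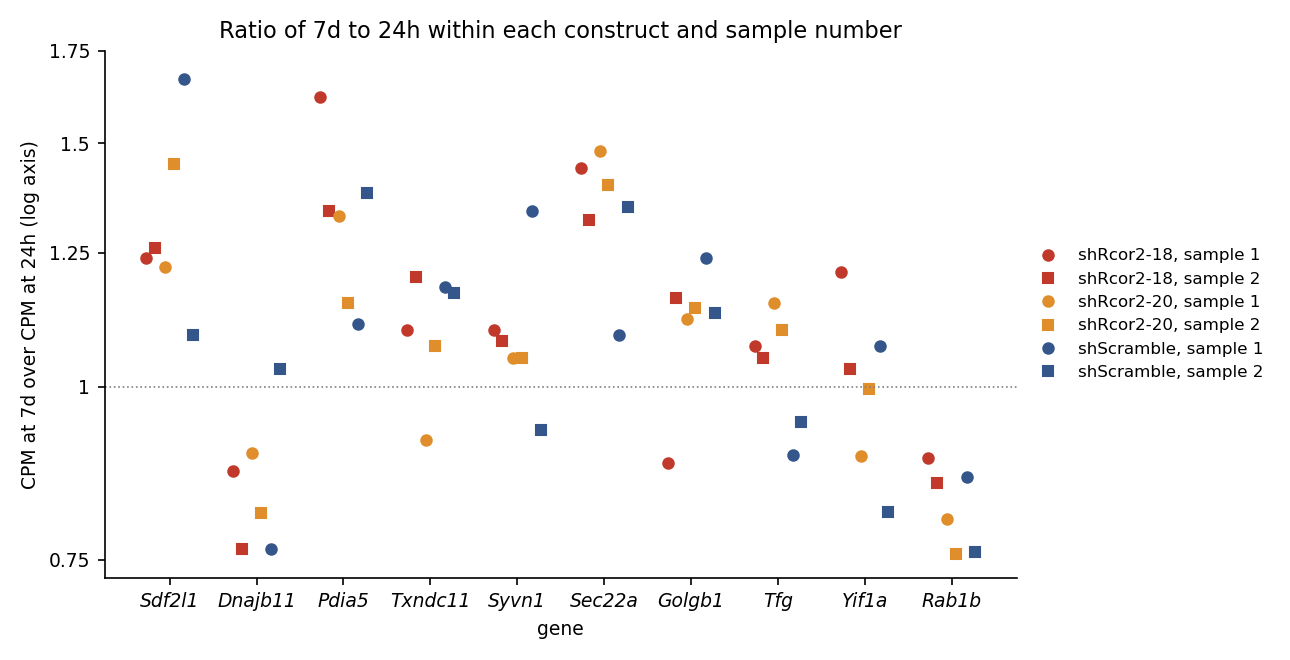
CPM at 7d over CPM at 24h for the library of the same construct and sample number (log axis, 6 ratios per gene, dotted line at 1). All 6 ratios lie above 1 for Sdf2l1, Pdia5 and Sec22a and below 1 for Rab1b, while those of Yif1a lie on both sides, 3 of 6 above. For Sdf2l1, Sec22a and Rab1b this follows from libraries of 7d and 24h that did not overlap. The share of all rows with 6 ratios on the same side was not computed.

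With the construct labels taken as given, none of the 10 genes differed detectably between the hairpins and shScramble. The knockdown could not be checked, because the Rcor2 row lies outside the checked stretches. Over all times, the mean of both hairpins differed from shScramble by -0.27 to 0.11 on the log2 scale, with SEs of 0.066 to 0.23. In edgeR 0 of 10 members passed, at the adjusted or at the unadjusted 0.05, and DESeq2 also called 0. Of all 12930 rows, 1 passed in that comparison (0.00773%). The lowest edgeR adjusted p was 0.791, for Dnajb11, which averaged 308 ± 33.5 CPM in shRcor2-18, 326 ± 32.9 in shRcor2-20 and 348 ± 49.1 in shScramble (SD, n = 5 each). Its difference of hairpins from shScramble was -0.17 ± 0.088, with a 95% interval of -0.37 to 0.032.

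With the construct labels taken as given, the intervals show how large a difference between the labelled groups could have been missed. They do not bound an effect of Rcor2, because neither the labels nor the knockdown could be checked here. The fit also took no account of the likeness of libraries across constructs, and the summed libraries were not used for the hairpins. For Rab1b the 95% interval was -0.17 to 0.13, the narrowest, around a difference of -0.021. For Pdia5 it was -0.80 to 0.27, the widest, around -0.27. Pdia5 averaged 111 ± 26.9 CPM in shRcor2-18, 136 ± 31.8 in shRcor2-20 and 142 ± 50.4 in shScramble (SD, n = 5 each). Sec22a, which rose with time, averaged 104 ± 21.0, 106 ± 21.5 and 99.2 ± 16.7 CPM in the same constructs, and its difference of hairpins from shScramble was 0.11 ± 0.085 (edgeR adjusted p = 0.876).

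Taken one at a time, the hairpins gave no call either. The difference from shScramble ran from -0.39 ± 0.27 for Pdia5 to 0.093 ± 0.098 for Sec22a with shRcor2-18, and from -0.15 ± 0.27 for Pdia5 to 0.12 ± 0.098 for Sec22a with shRcor2-20. The share of all rows past the threshold was 0.101% and 0.0387%. Between the hairpins the members differed by -0.066 to 0.23 (shRcor2-20 over shRcor2-18), with 0 past the threshold and 0.0928% of all rows past it. At single times the hairpins differed from shScramble by -0.59 to 0.41 at 0h, where shScramble had 1 library, by -0.25 to 0.11 at 24h and by -0.18 to 0.15 at 7d, again with 0 members past the threshold (0.155%, 0.0155% and 0.0387% of all rows). The hairpin difference at 7d was set against that at 24h as an interaction, and 0 of 10 members passed (0.0541% of all rows). The largest such change was 0.25 ± 0.17, for Tfg (edgeR adjusted p = 1.0, unadjusted 0.179). Tfg had 260 to 303 CPM with the hairpins and 304 and 357 CPM with shScramble at 24h, and 274 to 350 CPM with the hairpins and 272 and 337 CPM with shScramble at 7d.

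**Figure D5:**
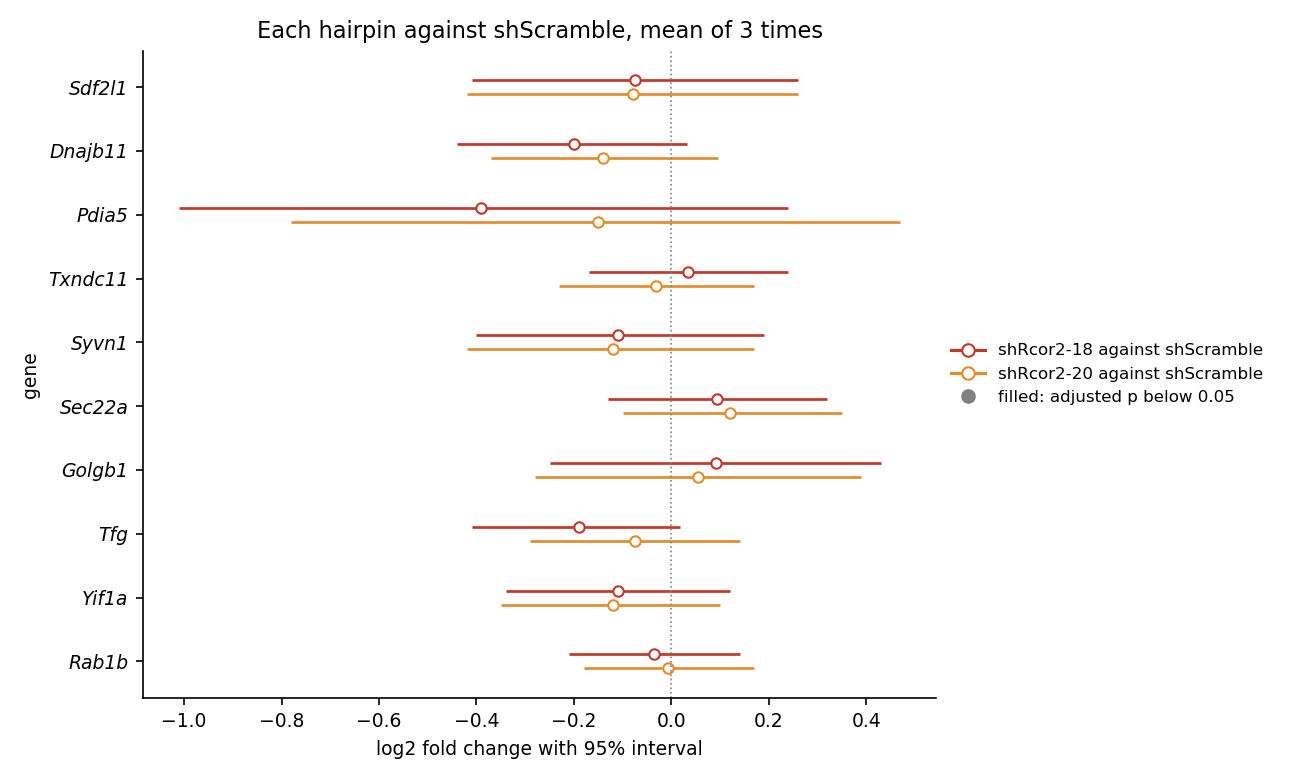
Log2 fold change with its 95% interval of each hairpin against shScramble for the 10 genes, averaged over the 3 times, from edgeR. Every interval includes 0, and that of Pdia5 is the widest.

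Few other genes listed for these or related pathways lay in the checked stretches. Of 47 names listed for ER folding, stress response and degradation, 5 lay in the checked stretches (Hspa13, Ufd1l, Alg3, Eif2b5 and P3h2), so that BiP and most chaperones were not analysed here. At 7d against 0h, 0 of the 5 passed as higher and 1 as lower, beside 2.49% of all rows lower, and beside 25.2% of the 468 genes of the checked stretches in either direction when these were fitted alone. That gene was P3h2, a prolyl 3-hydroxylase that modifies collagen in the ER, with 43.2 ± 17.4 CPM at 7d (SD, n = 6) and 202 ± 68.7 CPM at 0h (n = 3), a log2 fold change of -2.16 ± 0.39 (edgeR adjusted p = 0.018). At 24h against 0h and at 7d against 24h, 0 of the 5 passed.

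Of 53 names listed for early secretory transport, 6 lay in the checked stretches (Snap29, Vps8, Pacs1, Cnih2, Klc2 and Ap2m1). The list is wider than its name, since Ap2m1 and Pacs1 act at the cell surface and the trans-Golgi network. Its calls therefore do not describe the route from ER to Golgi. At 7d against 0h, 0 passed as higher and 3 as lower, beside the same 2.49% of all rows lower. In the fit of the 468 genes alone, 57 of them were lower, and so were these 3. Ap2m1, a subunit of the clathrin adaptor at the cell surface, had 895 ± 25.5 CPM at 7d (SD, n = 6) and 1178 ± 56.6 CPM at 0h (n = 3), a difference of -0.40 ± 0.086 (edgeR adjusted p = 0.0356). It was also lower against 24h, at 1140 ± 102 CPM (n = 6), by a difference of -0.35 ± 0.072 (edgeR adjusted p = 0.0486). With the sample number within construct as a block, Ap2m1 did not pass against 0h (edgeR adjusted p = 0.106) or against 24h (edgeR adjusted p = 0.0752). Each of its calls held in 4 of the 15 fits that left out 1 library, with an edgeR adjusted p of up to 0.0968 against 0h and 0.126 against 24h. Pacs1, a sorting protein of the trans-Golgi network, differed by -0.60 ± 0.10 at 7d against 0h (edgeR adjusted p = 0.0134), a call that was lost without shRcor2-18 0h sample 2 (edgeR adjusted p = 0.0578). Cnih2, a cargo receptor homologue that overlaps Yif1a, differed by -1.68 ± 0.27 at 7d against 0h (edgeR adjusted p = 0.00997). It had 3.87 ± 1.11 CPM at 7d (n = 6) and 12.3 ± 2.37 CPM at 0h (n = 3), and with the block the edgeR adjusted p was 0.0578. Its row had a mean of 6.99 CPM, below the 20 CPM taken as detected. Because the strand setting was not given, reads of Cnih2 and Yif1a cannot be told apart. Between the hairpins and shScramble over all times, 0 of these 11 genes passed.

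Across the 15 libraries, the levels of Sec22a and Rab1b ran against each other (Pearson r of log2 CPM = -0.88), and those of Dnajb11 and Rab1b ran together (0.66), as did Pdia5 and Tfg (0.72) and Syvn1 and Golgb1 (0.69). The complex partners Sdf2l1 and Dnajb11 had an r of -0.23. These values describe the libraries, which share the 3 times and the constructs, and carry no test. Among the 468 genes of the checked stretches, the gene most like Rab1b was Mb21d2 (r = 0.93), that most like Sec22a was Abat (0.91), and that most like Dnajb11 was C330027C09Rik (0.90). Pdia5 was most like Klhl22 (0.88), Syvn1 most like Zc3h7a (0.83), Golgb1 most like Son (0.81) and Yif1a most like Pitpnm1 (0.79). Tfg was most like Zfp597 (0.78), and both Sdf2l1 and Txndc11 were most like Scarf2 (0.75 and 0.66).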

How the data were processed

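The values deposited by the authors are unnormalised counts, whole numbers for 40620 rows in 18 columns, 1 per library. Per the submitters' processing notes, the tools were FastQC, TopHat2 2.0.9, DESeq and DESeq2, and the build was mm9; the reads were 100 bp long, per the labels. The program that counted reads, the strand setting and the gene models were not given in the sources used here.

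Counts of all rows were fitted with edgeR 4.0.16 in R 4.3.3 (filterByExpr, TMM, robust dispersions, glmQLFit and glmQLFTest, 9 group means, no block), with Benjamini-Hochberg adjustment over 12930 rows and a threshold of 0.05. Sample 1 of each construct at 0h was left out, so 15 libraries and 6 residual degrees of freedom remained, and the single 0h library of a construct was assumed to vary as the replicated groups do. The 3 times were compared over the constructs, the hairpins over the times. CPM are counts scaled to library size after TMM. Intervals are 95% intervals from the fit. The script was tested on simulated data. Those counts were drawn independently for each library, without the likeness across constructs seen here, so they do not test the calls.

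A row name counted as in register where it lay before the last broadly expressed family member (ribosomal proteins, proteasome, respiratory chain and similar) that came before 2 successive members under 20 CPM, from a chromosome's start, with at least 5 such members in the stretch. This held for 719 coding rows of chromosomes 16 and 19 (GENCODE vM21 order). Of other broadly expressed genes held out of the search, some of them named singly, 12 of 12 were detected there, 2 of them on chromosome 19. The rule was chosen after the data were examined. The members, gene lists and named genes (all members, listed genes in register, 1 most similar gene per member) were chosen with earlier results of these data known.

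The deviations of the libraries of 1 construct and number from their group means correlated between 24h and 7d at 0.29 to 0.444 over in-register genes, so the number within construct was taken to pair those times, from the values and not from the labels. Over all rows tested it was 0.0303 to 0.0624. Libraries of the same number but different constructs correlated over in-register genes at -0.0212 to 0.306 at 24h and at 0.103 to 0.335 at 7d. The likeness by number was therefore not particular to a construct. Other alternatives were other scalings and filters, DESeq2 1.42.0, in-register rows alone, all 18 libraries, each library left out, and, added after the data were examined, partner libraries of different constructs summed.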

Additional observations from a re-analysis of the deposited data

How the results depend on the processing

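Of 10 members, 2 passed at 7d against 0h and 1 at 7d against 24h. With a replicate block by number within construct or within time, or with no filter on low counts, both counts were 0. With all 18 libraries they were 1 and 0, and with partner libraries summed also 1 and 0. DESeq2 and the fit of in-register rows alone gave 2 at 7d against 24h. With library size alone that count was 1, but the member was Rab1b. Leaving out 1 library gave 0 to 2 members at 7d against 0h and 0 to 1 at 7d against 24h. The numbers of members called at 24h against 0h, for the hairpins and for the interaction were 0 in all settings run. Of the listed genes' calls at 7d against 0h, those of P3h2 and Pacs1 held with the block within construct and those of Cnih2 and Ap2m1 did not. With the block within time, only that of P3h2 held (edgeR adjusted p = 0.0267), against 0.0855 for Pacs1, 0.0742 for Cnih2 and 0.0996 for Ap2m1, and Ap2m1 at 7d against 24h had 0.183. That last call held with DESeq2, library size alone and in-register rows alone, and missed the threshold with RLE (0.057), no filter (0.0517), a stricter filter (0.0565), all 18 libraries (0.387) and summed partners (0.203). With no filter P3h2 had 0.0574, and with summed partners Ap2m1 had 0.0525. Of all rows, 302 passed at 7d against 24h, and 1100 did with DESeq2, 38 with all 18 libraries, 21 with summed partners, 169 with the block within construct and 5 with the block within time. At 7d against 0h the 745 became 1427 with DESeq2 and 432 and 353 with these blocks. At 24h against 0h the 240 became 582 with DESeq2, 135 with summed partners and 56 and 97 with the blocks. For the hairpins the 1 row became 109 with DESeq2, 20 with no filter, 8 with library size alone and 0 with all 18 libraries or either block. For the interaction the 7 became 35 with DESeq2, 0 with all 18 libraries and 1 and 2 with the blocks. Among the 468 in-register genes alone, 81, 118 and 26 passed in the 3 comparisons of times and 0 in the other 2.

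The differences that changed sign were not past the threshold, apart from Sec22a at 7d against 0h with all 18 libraries (-0.17). With those 18 libraries the log2 values at 7d against 0h were -0.59 for Golgb1, -0.67 for Sdf2l1, -0.43 for Syvn1, -0.46 for Tfg and -0.47 for Txndc11. At 24h against 0h they were -0.66 for Dnajb11 and -0.62 for Sec22a, at 7d against 24h 0.010 for Yif1a, and for the hairpins -0.035 for Golgb1, 0.060 for Rab1b and 0.10 for Sdf2l1. With RLE size factors or DESeq2 they were -0.0057 and -0.0058 for Dnajb11 at 24h against 0h, 0.0046 and 0.0048 for Yif1a at 7d against 24h, and -0.0047 and -0.0045 for Txndc11 with the hairpins, a value that was -0.038 with library size alone, -0.017 with no filter and -0.0021 with a stricter one. At 24h against 0h, in-register rows gave 0.017 for Golgb1, 0.020 for Syvn1, 0.013 for Tfg and 0.022 for Txndc11, and library size alone gave 0.0030 for Golgb1, 0.0051 for Syvn1 and 0.0055 for Txndc11. For Tfg, library size alone gave -0.0044 at 7d against 0h and -0.0018 against 24h, and summed partners gave 0.0056 at 24h against 0h. The block within construct gave -0.015 for Golgb1 and -0.013 for Syvn1 at 7d against 0h, 0.016 for Txndc11 at 24h against 0h and -0.056 for Golgb1 with the hairpins. The block within time gave -0.0040 for Dnajb11 at 24h against 0h and -0.061 for Syvn1 at 7d against 0h. The cause was not tested.

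With 1 library left out, signs changed within these ranges. At 24h against 0h they were -0.060 to 0.12 for Dnajb11, -0.15 to 0.091 for Golgb1, -0.018 to 0.12 for Sec22a, -0.063 to 0.040 for Syvn1, -0.053 to 0.033 for Tfg and -0.087 to 0.046 for Txndc11. At 7d against 0h they were -0.014 to 0.23 for Golgb1, -0.14 to 0.26 for Pdia5 and -0.023 to 0.081 for Tfg, and at 7d against 24h -0.0074 to 0.096 for Tfg and -0.064 to 0.043 for Yif1a. For the hairpins they were -0.095 to 0.12 for Golgb1, -0.047 to 0.0013 for Rab1b, -0.18 to 0.051 for Sdf2l1 and -0.042 to 0.046 for Txndc11. For the interaction they were -0.30 to 0.13 for Dnajb11, -0.36 to 0.71 for Pdia5, -0.042 to 0.10 for Rab1b, -0.40 to 0.27 for Sdf2l1, -0.26 to 0.13 for Syvn1 and -0.020 to 0.30 for Yif1a.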
